A study of Arabidopsis thaliana with 30 samples.

Results

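The 33 genes described here encode nuclear subunits of the photosynthetic electron transport chain of Arabidopsis thaliana. They comprise 12 subunits of photosystem I, 12 of photosystem II, 6 carriers of electrons and 3 subunits of the chloroplast ATP synthase. They were chosen by function, from a list of locus identifiers, out of the 27655 genes in the deposited table. Earlier results of these data were known at that choice. All 33 were among the 19005 genes tested. Transcripts were measured by RNA sequencing in whole leaves of jazD plants in the Col-0 ecotype, a line known for lacking most of the JAZ repressors of jasmonate signalling. Plants aged 26 days, kept under 16 h of light and 8 h of darkness, received a spray of either 5 µM coronatine in water or plain water (mock). Coronatine is a bacterial toxin that mimics the active jasmonate hormone. Leaves were taken at 0, 1, 3, 12 and 24 h, with 3 libraries per treatment and time and 30 in all. Every group carried jazD, so no group with the full set of JAZ genes was compared, and the clock time of spraying is not given in the sources used here. The labels do not say whether the 3 replicates of a group came from separate plants, so the p-values measure how far these libraries spread.

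Values are TPM, the share of a library's transcripts that each gene makes up after correction for transcript length, scaled to a fixed total. They keep no record of depth, so no error from read counting could be given. Within groups, Spearman correlations across genes ranged from 0.984 to 0.990. Every library sums to the same total. The median of all tested genes itself differed between coronatine and mock leaves, from a cause that was not tested. On the log2 scale it was 0.02 at 0 h, and over the later times in order -0.18, -0.46, -0.54 and -0.24. TPM was therefore also rescaled by TMM factors, which set the bulk of genes level. The words rose and fell are kept for genes that limma called at an adjusted p below 0.05 on both scalings with 1 sign. Differences are given as log2(TPM + 1) in coronatine minus mock leaves on TPM as deposited, unless the rescaled value is named. In whole leaves, fewer cells of a type and less transcript per cell cannot be told apart.

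Photosystem II takes electrons from water, the cytochrome complex passes them to plastocyanin in the thylakoid lumen, and photosystem I passes them to ferredoxin in the stroma, where ferredoxin-NADP reductase makes NADPH. The proton gradient built on the way drives the ATP synthase. The core subunits of these complexes are largely encoded in the plastid, while the genes described here lie in the nucleus and their proteins are imported, and in green leaves they rank among the most abundant transcripts.

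The region from 250 bases before to 50 bases after the annotated start was read for each gene from the RefSeq genome (build TAIR10.1), which placed all 33 genes on the chromosome and strand given in the deposited tables. The sequences of PSAE1, which rose at 3 h and 12 h, of PSB27, with the largest fall, and of PSBQ1 and PSBQ2, a pair whose balance shifted, are shown from 5′ to 3′ on the coding strand. They lie at chr4:14204012-14204311 (reverse strand), chr1:898230-898529 (forward), chr4:11334102-11334401 (forward) and chr4:2673194-2673493 (reverse). Capitals mark matches on either strand to the letters searched, which were the G-box CACGTG, the I-box GATAAG, the motif CCAATC, the related box AACGTG, the GCC-box GCCGCC and the evening element AAAATATCT.
PSAE1: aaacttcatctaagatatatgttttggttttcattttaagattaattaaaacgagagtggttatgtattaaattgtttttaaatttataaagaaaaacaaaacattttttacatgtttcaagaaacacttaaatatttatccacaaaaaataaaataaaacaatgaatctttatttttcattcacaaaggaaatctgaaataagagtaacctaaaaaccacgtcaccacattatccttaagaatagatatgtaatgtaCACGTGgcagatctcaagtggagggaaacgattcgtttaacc
PSB27: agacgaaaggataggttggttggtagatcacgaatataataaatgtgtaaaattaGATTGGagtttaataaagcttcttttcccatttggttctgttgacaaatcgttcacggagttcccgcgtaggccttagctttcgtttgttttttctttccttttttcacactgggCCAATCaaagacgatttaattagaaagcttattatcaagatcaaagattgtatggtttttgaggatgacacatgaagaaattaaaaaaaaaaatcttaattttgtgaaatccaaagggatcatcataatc
PSBQ1: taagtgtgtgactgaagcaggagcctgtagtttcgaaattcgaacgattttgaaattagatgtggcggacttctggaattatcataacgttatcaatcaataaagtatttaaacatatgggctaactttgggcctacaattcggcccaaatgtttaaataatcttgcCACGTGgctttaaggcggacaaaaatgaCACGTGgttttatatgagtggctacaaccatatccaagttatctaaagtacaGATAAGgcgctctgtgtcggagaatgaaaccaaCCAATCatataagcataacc
PSBQ2: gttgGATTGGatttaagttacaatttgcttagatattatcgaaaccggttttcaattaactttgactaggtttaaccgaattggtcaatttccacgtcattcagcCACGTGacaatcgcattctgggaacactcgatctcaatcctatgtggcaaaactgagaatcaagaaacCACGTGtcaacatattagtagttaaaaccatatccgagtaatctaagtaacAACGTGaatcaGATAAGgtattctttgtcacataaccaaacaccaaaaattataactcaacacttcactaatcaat
The G-box lay in 12 of the 33 promoters (36.4%) and in 7.68% of the same windows of 27443 nuclear protein-coding genes. The I-box lay in 18 members (54.5%, against 14.6% of all windows) and CCAATC in 8 (24.2%, against 12.3%). The other letters were found in few members: AACGTG in 3 (9.09%, against 8.95%), GCCGCC in PSAE2 alone (3.03%, against 2.57%) and AAAATATCT in ATPC1 alone (3.03%, against 2.82%). Both genes of the PSAE, PSAH, PSBO and PSBQ pairs held a G-box, whereas none of the electron carriers did. The median difference at 24 h was -2.34 for members with a G-box and -2.78 for those without. For the I-box these medians were -2.81 and -2.62. A match describes the letters in the window and is not a test of binding. For PSB27 the start in the deposited coordinates lies 396 bases from the RefSeq start, for PSAE1 100 bases and for PSBS 1475 bases, which is more than the whole window. In 28 of 33 members the starts lie within 150 bases of each other. The windows, and the motif counts over 33 members, depend on the annotation chosen, and PSBS is counted there as holding none of these letters.

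At 0 h no member was called: limma called 0 (background 0%), 0 members had an unadjusted p under 0.05, and the authors' deposited table also called 0. Differences at 0 h ran from -0.06 to 0.06. Together the 33 genes made up 8.89% of all TPM in mock leaves at 0 h. Their summed level was 88866 ± 2475 TPM (SD, n = 3) in mock and 89166 ± 798 TPM in coronatine leaves at that time. At 24 h the sum was 90885 ± 1601 TPM in mock and 16765 ± 2592 TPM in coronatine leaves, or 18.4% of the mock level. In between, coronatine leaves stood at 92.6% of mock at 1 h, 79.3% at 3 h and 46.4% at 12 h. At 1 h and 3 h that order depended on the scaling, since the rescaled sums were higher in coronatine leaves, by 0.10 and 0.24 on the log2 scale. At 12 h the log2 ratio was -1.11 on TPM as deposited and -0.39 on the rescaled values.

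**Figure D1:**
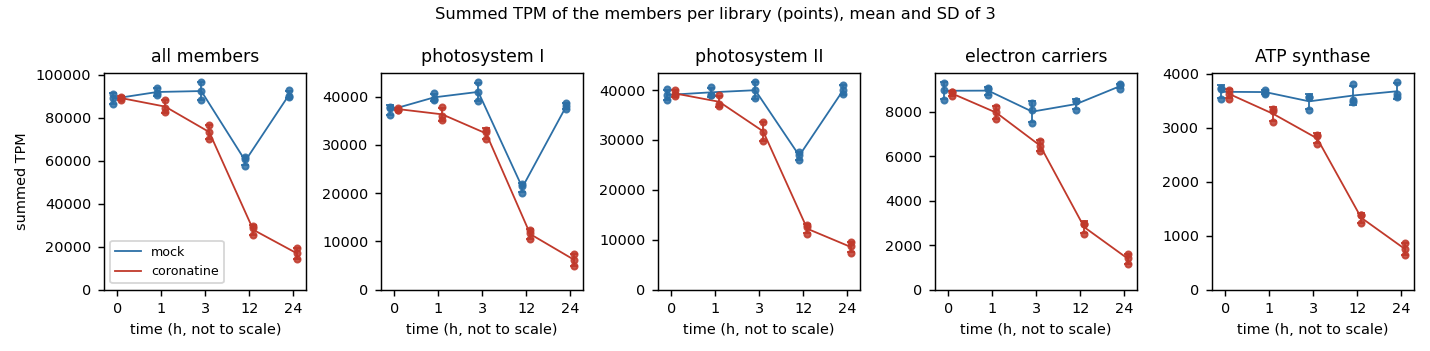
Summed TPM of the members in each role group per library (points) against time after spraying in h, with the mean and SD of 3 libraries for coronatine and mock leaves. At 24 h all coronatine libraries lie below all mock libraries in every group, and at 12 h the mock sums of both photosystems are lower than at 0 h.

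The members fell late and nearly all together. At 1 h limma called 0 members in either direction (background 9.52% of tested genes risen and 15.3% fallen). On TPM as deposited 7 members had an unadjusted p under 0.05, as did 10959 of the 19005 tested genes. The authors' deposited table gave 4 members as higher and 0 as lower. Over all 21768 loci with values it gave 3109 as higher and 2910 as lower. At 3 h 2 members rose (background 14.2%) and 0 fell (background 35.7%). That count of 0 rests on the scaling: 24 members were called lower on TPM alone, while 16 were called higher on rescaled TPM and 16 in the authors' deposited table. Of all 19005 tested genes, 12843 were called lower on TPM alone and 6726 higher on rescaled TPM. The authors' deposited table gave 6453 of 21768 loci with values as higher. At 12 h 23 members fell (background 41.4%) and 1 rose (background 24.3%). At 24 h 33 of 33 fell (background 43.5%) and 0 rose (background 37.2%), a count of 0 that the authors' deposited table shared. Over these 4 times the median member stood at -0.14, -0.37, -1.30 and -2.62, beside the medians of all tested genes given above. On rescaled TPM the member medians were 0.06, 0.20, -0.59 and -2.29.

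On TPM as deposited, all 3 coronatine values lay below all 3 mock values in 33 members at 24 h and in 32 at 12 h. This held for 27 members at 3 h and 20 at 1 h. The same share over all tested genes was not computed, so these counts have no background of their own. By another measure, limma called 9612, 11700, 12843 and 7919 of 19005 tested genes lower on TPM alone at these times in order. On rescaled TPM the difference was positive in 30 members at 3 h and in 28 at 1 h. The median of all tested genes on that scale was -0.0083 at 3 h and 0 at 1 h. At 24 h the highest adjusted p of any member was 6.51e-13 on TPM as deposited and 1.81e-09 on rescaled TPM. Members kept between 4.82% (PSB27) and 50.4% (PSBS) of their mock level at that time, with a median of 16.2%. The size of the fall did not follow abundance, with a Pearson r of 0.0646 and a Spearman rho of -0.0358 between the difference at 24 h and the log2 mock level over 33 members. The differences at 12 h and 24 h ran together across members (r 0.762, rho 0.763, n = 33). Both correlations are across genes measured in the same libraries and are given as descriptions.

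**Figure D2:**
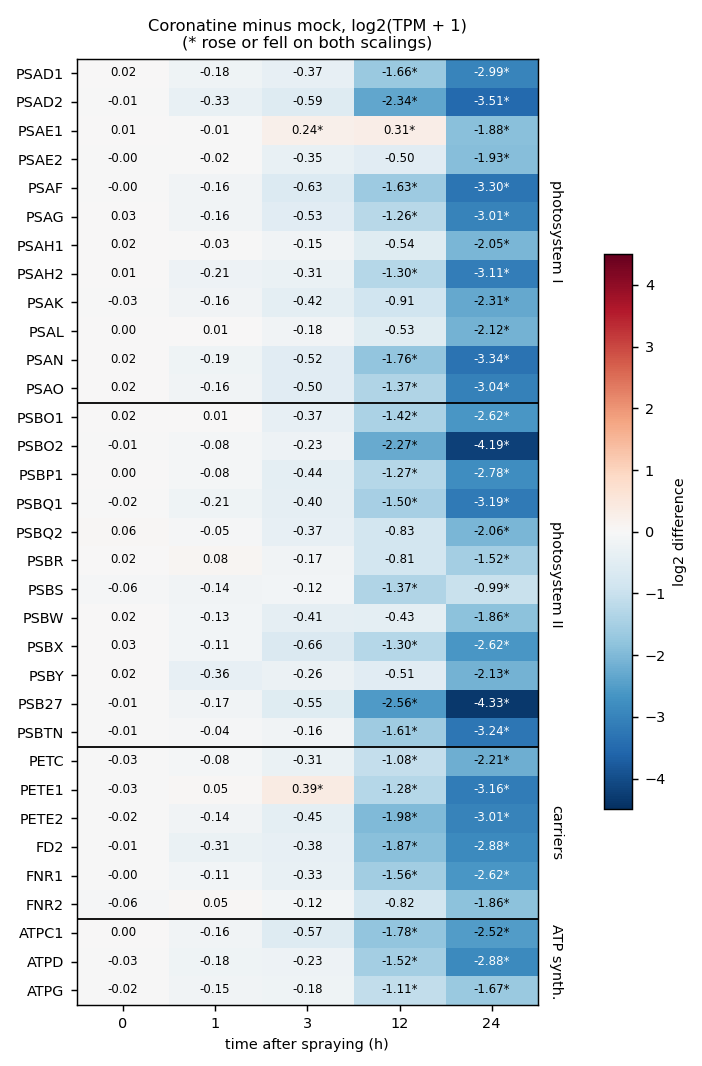
Coronatine minus mock difference on the log2(TPM + 1) scale for the 33 members (rows, by role group) at 5 times in h (columns), with stars where a member rose or fell on both scalings. PSAE1 at 3 h and 12 h and PETE1 at 3 h are the starred positive values, and every member is starred and negative at 24 h. Unstarred negative values at 1 h and 3 h mostly turn positive on rescaled TPM.

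The 12 photosystem I genes had a median difference of -3.00 at 24 h, and 12 of 12 fell. At 12 h 7 of them fell, 1 rose and 4 were called lower on TPM as deposited but not on rescaled TPM. PSAE1 (AT4G28750, chromosome 4, 14202758 to 14203961, reverse strand, TAIR10) encodes a stromal subunit that helps to dock ferredoxin. At 3 h it stood at 4022, 4246 and 4123 TPM in the coronatine libraries and at 3282, 3530.45 and 3651 TPM in the mock libraries. At 12 h it stood at 2375, 2247 and 2401 TPM with coronatine and at 1849.8, 1949.9 and 1856 TPM in mock. All coronatine libraries were thus above all mock libraries at both times. The means at 0 h were 3314 TPM in the coronatine and 3296 TPM in the mock libraries, so at 12 h both treatments stood below their 0 h level. PSAE1 rose by 0.24 ± 0.09 (SE) at 3 h, with a limma adjusted p of 0.0155, and by 0.31 ± 0.09 at 12 h, with an adjusted p of 0.00256. Under quantile normalization the direction at 12 h turned, to -0.072 with an adjusted p of 0.481. Without the mock replicate 1 at 3 h, the lowest of its group, the adjusted p at 3 h was 0.0704. By 24 h PSAE1 stood at 932, 1119.8 and 747 TPM with coronatine, against 3365, 3443 and 3346 TPM in mock, a fall with a log2 difference of -1.88 ± 0.09.

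PSAD2 (AT1G03130, chromosome 1, 753307 to 754198, reverse strand, TAIR10), which encodes another stromal subunit at the ferredoxin side, had the largest fall in photosystem I. At 12 h it stood at 135, 94.8 and 119 TPM with coronatine and at 644, 549 and 570.05 TPM in mock. At 24 h it stood at 191, 259 and 148 TPM with coronatine and at 2176, 2199 and 2290.2 TPM in mock. The groups did not overlap at either time, and the mock level itself was far lower at 12 h than at 24 h. PSAD2 fell at both times, with log2 differences of -2.34 at 12 h and -3.51 at 24 h and an SE of 0.13 at each.

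The other photosystem I genes fell within a range set by PSAE1 and PSAD2. PSAF, which takes part in plastocyanin docking, stood at 10.3% of mock at 24 h, and the lumen subunit PSAN differed by a similar -3.34. PSAO and PSAG, of the antenna-facing sides of the complex, stood at 12.3% and 12.6%. On the side where light-harvesting complex II can dock, PSAL and PSAH1 kept 23.2% and 24.4% of mock, while PSAH2, the more abundant gene for the same subunit as PSAH1, kept 11.9%. PSAE2, PSAH1, PSAK and PSAL were not called at 12 h, where their differences were -0.50, -0.54, -0.91 and -0.53 on TPM as deposited but 0.22, 0.17, -0.19 and 0.18 on rescaled TPM. PSAK was called as fallen at 12 h without the coronatine replicate 1.

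The 12 photosystem II genes had a median difference of -2.62 at 24 h, and 12 of 12 fell, 8 of them already at 12 h. This group held both the largest and the smallest falls. PSB27 (AT1G03600, chromosome 1, 898876 to 899655, forward strand, TAIR10) encodes a lumen protein of photosystem II assembly and repair. At 3 h it stood at 243, 258 and 242 TPM with coronatine and at 341, 374 and 374 TPM in mock, and at 12 h at 44.2, 35.05 and 40.04 TPM against 246, 229.9 and 239 TPM. At 24 h it stood at 20.5, 24.7 and 15.9 TPM with coronatine and at 421, 404 and 442.5 TPM in mock. No library of one treatment reached the other at these times. PSB27 fell with log2 differences of -2.56 ± 0.09 at 12 h and -4.33 ± 0.09 at 24 h (SE), and at 24 h it ranked 214 from the lowest among 19005 tested genes. Its difference at 3 h, -0.55 on TPM as deposited and 0.02 on rescaled TPM, was not called.

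PSBS (AT1G44575, chromosome 1, 16871696 to 16873383, forward strand, TAIR10), the sensor of lumen acidity for the dissipation of excess light energy, was singled out after its values were seen. It stood at 491, 422 and 491 TPM with coronatine at 12 h and at 1231, 1258 and 1136 TPM in mock. At 24 h the coronatine libraries were higher than at 12 h, at 894, 853 and 821 TPM, beside 1723, 1675 and 1696 TPM in mock. Its log2 difference was -1.37 ± 0.07 at 12 h and -0.99 ± 0.07 at 24 h, the smallest fall among the 33 members at that time. It was the only member whose difference was not called as more negative at 24 h than at 12 h: the change was 0.38 on TPM as deposited (adjusted p 0.00142) and -0.0015 on rescaled TPM (adjusted p 0.991).

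The proteins that cap the water-splitting site lie between these ends. PSBO1 and PSBO2 encode the subunit that stabilises the manganese cluster, and PSBP1, PSBQ1 and PSBQ2 the neighbouring extrinsic proteins. PSBO2 kept 5.56% of mock at 24 h, PSBP1 14.6%, PSBO1 16.4% and PSBQ2 24.1%, and PSBQ1 had a log2 difference of -3.19 ± 0.09 (SE). PSBR, a lumen subunit linked to that site and the most abundant member in mock leaves at 24 h with 7062 ± 139 TPM, kept 34.8%. Among the small subunits, PSBTN stood at 10.8%, PSBX at 16.4%, PSBY at 23.0% and PSBW at 27.8% of mock. PSBW had the smallest difference of the group at 12 h, -0.43 on TPM as deposited and 0.29 on rescaled TPM, and was not called there.

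**Figure D3:**
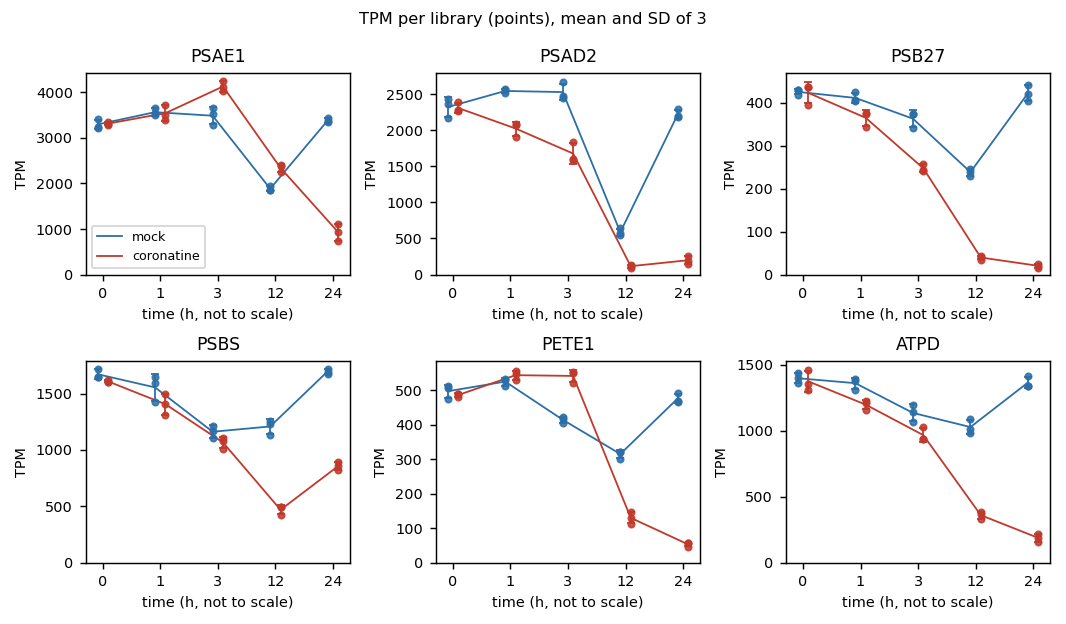
TPM per library (points) with the mean and SD of 3 libraries against time in h (categories, not to scale) for PSAE1, PSAD2, PSB27, PSBS, PETE1 and ATPD. In all 6 genes the coronatine libraries lie below the mock libraries at 24 h, and PSAE1 lies above them at 3 h and 12 h.

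All 6 electron carriers fell at 24 h, with a median of -2.75, and 5 of them had fallen at 12 h. PETE1 (AT1G76100, chromosome 1, 28553987 to 28554768, reverse strand, TAIR10) encodes the less abundant plastocyanin, the copper protein between the cytochrome complex and photosystem I. At 3 h it stood at 552, 552 and 522 TPM with coronatine and at 406, 422 and 416 TPM in mock. At 12 h it stood at 146, 113 and 131 TPM with coronatine against 322, 321 and 302 TPM, and at 24 h at 55.6, 55.6 and 46.4 TPM against 468, 493 and 471 TPM. The coronatine libraries thus went from above all mock libraries at 3 h to below all of them at 12 h and 24 h. PETE1 rose by 0.39 ± 0.07 at 3 h (adjusted p 1.44e-05), a call lost under quantile normalization (0.14, adjusted p 0.0845), then fell, with differences of -1.28 at 12 h and -3.16 at 24 h. In mock leaves PETE1 fell by 0.26 between 0 h and 3 h, so the mock level at 3 h was itself lower than at the start.

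PETE2, the main plastocyanin, stood at 25.4% of mock at 12 h and 12.5% at 24 h. FD2, the main leaf ferredoxin, stood at 27.6% and 13.8% at these times, and PETC, the Rieske protein of the cytochrome complex, at 47.4% and 21.7%. FNR1, a leaf ferredoxin-NADP reductase, stood at 33.8% and 16.2%. FNR2, the other leaf reductase, was the carrier not called at 12 h. It stood at 484, 458 and 503 TPM with coronatine and 881, 849 and 830.4 TPM in mock at that time. The authors' deposited table gave it as lower there, with a log2 fold change of -0.15. At 24 h FNR2 had fallen to 27.5% of mock.

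All 3 ATP synthase genes fell at 12 h and at 24 h. ATPD (AT4G09650, chromosome 4, 6100743 to 6101708, forward strand, TAIR10), the delta subunit that joins the catalytic head to the stalk, stood at 368, 328 and 380.2 TPM with coronatine and at 1085, 1011 and 984 TPM in mock at 12 h. At 24 h it stood at 184, 217 and 158 TPM with coronatine and at 1337, 1340.2 and 1416 TPM in mock, again with no overlap. ATPD fell at both times, with differences of -1.52 ± 0.08 at 12 h and -2.88 ± 0.08 at 24 h. ATPC1, the gamma subunit of the rotor, stood at 29.2% of mock at 12 h and 17.4% at 24 h, and ATPG, a subunit of the outer stalk, at 46.1% and 31.5%.

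The change of the difference between successive times was tested directly. From 1 h to 3 h only PETE1 moved, upwards by 0.34 ± 0.10 (1 of 33 members risen, background 11.2%), and 0 members moved downwards (background 25.1%). On TPM alone 13 members moved downwards, as did 8679 of the 19005 tested genes. From 3 h to 12 h 27 members moved downwards (background 30.6%), most of all PSBO2 by -2.05, and 0 moved upwards (background 30.0%). The 6 not called in that step were PSAE1, PSAE2, PSAH1, PSAL, PSBW and PSBY. From 12 h to 24 h the difference of 32 members moved downwards (background 15.1%), most of all that of PSAE1 by -2.19, and 0 moved upwards (background 24.9%). In this last step the median member moved by -1.43 and the median of all tested genes by 0.26. The mock level changed in this step as well, with the summed TPM of the members at 59956 at 12 h and 90885 at 24 h. With coronatine these sums were 27837 and 16765 TPM.

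Mock leaves had a course of their own, measured against mock leaves at 0 h, which all 4 of these comparisons share. At 1 h FNR2 rose (1 of 33, background 10.8%) and 0 members fell (background 7.96%). An unadjusted p under 0.05 in either direction was found for 2 members and for 5975 of the 19005 tested genes. At 3 h PSAE2, PSAG, PSBQ2 and FNR2 rose (background 22.8%), and 7 members fell (background 20.3%): PSBO2, PSBS, PETC, PETE1, PETE2, FD2 and ATPD. Without the mock replicate 1 at 0 h or at 3 h the count of fallen members was 4, and quantile normalization gave 2 fallen and 8 risen. The shares of all tested genes were not computed for these alternatives. At 12 h 24 members fell (background 10.1%) and FNR2 rose (background 20.2%). At 24 h limma called 0 members in either direction (background 0.132% fallen and 0.205% risen), with 0 at an unadjusted p under 0.05, and differences from 0 h lay between -0.06 and 0.10.

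The fall in mock leaves at 12 h took in 11 of 12 photosystem I genes, 10 of 12 photosystem II genes, 2 of 6 carriers (PETE1 and FD2) and 1 of 3 ATP synthase genes (ATPD). On rescaled TPM alone these counts were 12, 12, 4 and 2, beside 4111 of the 19005 tested genes called lower. A difference between the roles was not tested. The summed TPM of photosystem I was 37242 ± 963 in mock leaves at 0 h and 21166 ± 1019 at 12 h, while that of the ATP synthase was 3661 ± 122 and 3593 ± 178. PSAD2 fell furthest, with a difference of -1.98, to 25.3% of its 0 h level. FNR2 went the other way, from 427, 428 and 417 TPM at 0 h to 856, 874 and 919 TPM at 3 h and 881, 849 and 830.4 TPM at 12 h, and was at 419, 414 and 422 TPM at 24 h. These values mean that a percentage of mock at 12 h refers to a lower mock level for most photosystem genes than one at 24 h.

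There are 7 pairs of paralogues among the members, and the share of each gene within its pair does not depend on the scaling of the library. Reads that fit both copies may have been split between them by the authors' quantification, so these shares are uncertain to that extent. Each pair was tested over 1, 3, 12 and 24 h together, with treatment labels exchanged within each time in 160000 arrangements. In this exact two-sided permutation test all 7 pairs differed between treatments after adjustment over the 7 pairs, with adjusted p from 2.92e-05 to 0.0034. At a single time, 3 against 3 libraries cannot give a p below 0.1. The pairs come from members chosen with earlier results of these data known.

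PSBQ shifted most in favour of the second gene. At 24 h PSBQ1 stood at 225, 266 and 184 TPM with coronatine and at 2023, 2003 and 2080.3 TPM in mock, while PSBQ2 stood at 552, 659 and 482 TPM and at 2298, 2336 and 2396 TPM. PSBQ2 thus made up 71.6% ± 0.747 of the pair with coronatine and 53.5% ± 0.327 in mock (SD, n = 3). The libraries of the 2 treatments did not overlap, and the exact p over all 4 times was 7.50e-05, with a mean shift of 8.13 percentage points. The share of PSBQ2 was already higher in the coronatine libraries at 0 h, by 1.35 points with no overlap. FNR2 moved the same way within its pair, with 45.1% ± 0.155 of the pair at 24 h against 32.7% ± 0.629 in mock, and 57.7% ± 0.908 against 44.9% ± 0.491 at 12 h (exact p 1.25e-05, the smallest this test can give).

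PSBO and PSAH shifted away from the second gene. At 24 h PSBO2 stood at 109, 141 and 80.97 TPM with coronatine and at 1939, 1911 and 2112 TPM in mock, and PSBO1 at 843, 927 and 698 TPM and at 5060.3, 4806 and 5220.4 TPM. PSBO2 made up 11.7% ± 1.42 of the pair with coronatine and 28.3% ± 0.561 in mock (exact p over the 4 times 0.0034). At 3 h its share was instead slightly higher with coronatine, by 1.75 percentage points. PSAH2 stood at 532, 698 and 384 TPM with coronatine at 24 h and at 4585, 4583 and 4411 TPM in mock, and PSAH1 at 349, 421 and 289 TPM and at 1459, 1430.1 and 1462 TPM. PSAH2 made up 59.9% ± 2.66 of the pair with coronatine and 75.7% ± 0.567 in mock (exact p 1.25e-05). PSAD2 made up 33.8% ± 1.67 of its pair with coronatine and 42.3% ± 0.211 in mock at 24 h (exact p 1.25e-05).

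PSAE and PETE shares differed by more at 3 h and 12 h than at 24 h. PSAE2 made up 25.7% ± 1.07 of its pair with coronatine and 37.7% ± 0.890 in mock at 12 h, but 26.6% ± 0.701 and 27.3% ± 0.609 at 24 h (exact p over the 4 times 6.25e-04). The share of PSAE2 in mock leaves was itself 27.3% at 0 h. PETE2 made up 75.1% ± 1.29 of its pair with coronatine and 84.4% ± 0.677 in mock at 3 h, but 86.7% ± 0.900 and 85.3% ± 0.730 at 24 h (exact p over the 4 times 0.00174). The PETE2 share was lower with coronatine at 1 h (-1.97 percentage points), 3 h and 12 h but higher at 24 h (1.45 points), and the libraries did not overlap at any of these times.

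**Figure D4:**
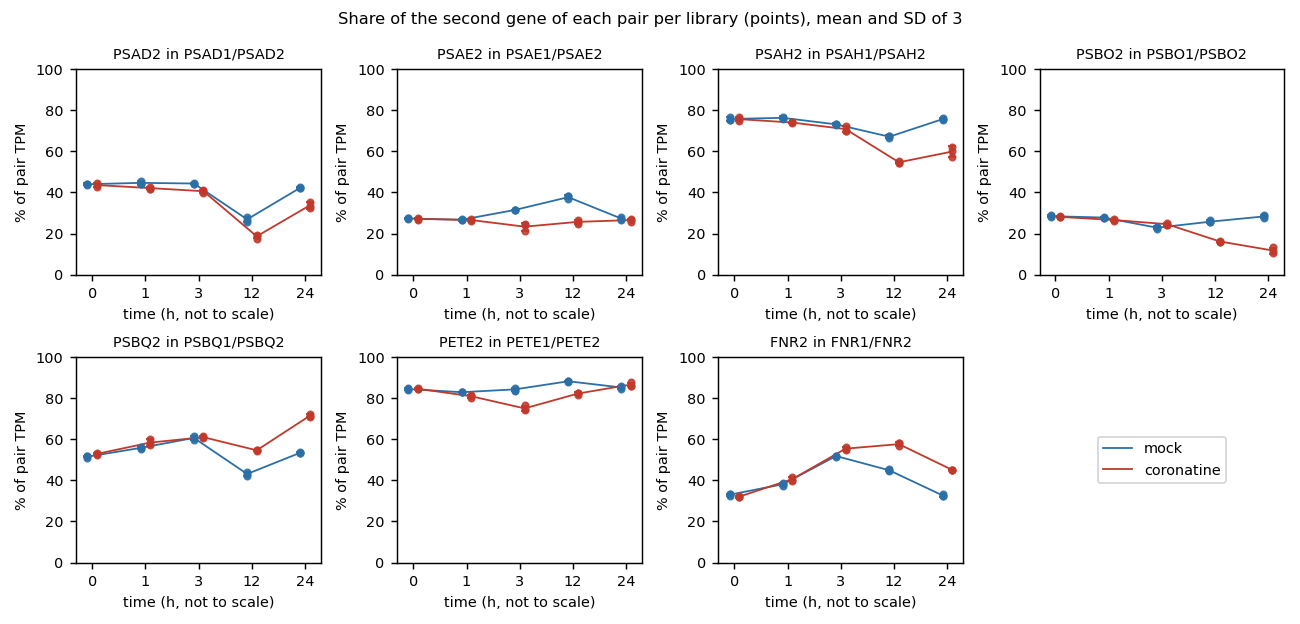
Share of the second gene in the summed TPM of each of 7 pairs, in %, per library (points) with the mean and SD of 3 libraries, against time in h (categories, not to scale). At 24 h the coronatine and mock libraries do not overlap in the PSAD, PSAH, PSBO, PSBQ, PETE and FNR pairs, and at 0 h they already do not overlap in the PSBQ and FNR pairs, whose means differ by 1.35 and -0.94 percentage points.

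Other nuclear genes of the thylakoid were described by 5 lists with the same fit, beside the background of 43.5% of tested genes fallen and 37.2% risen at 24 h. Of 17 genes of the NDH complex, which returns electrons from ferredoxin to the plastoquinone pool, 17 fell at 24 h and 15 at 12 h, with a median of -4.27 at 24 h. PNSB3 fell from 102 ± 7.34 TPM in mock to 0.800 ± 0.374 TPM and PNSL4 from 97.8 ± 2.01 to 1.46 ± 0.05 TPM at 24 h. Of 23 assembly factors 21 fell and 1 rose (median -2.20): LPA2 (-3.61) and PPD1 (-4.40) fell, HCF164, a thylakoid thioredoxin-like protein needed for the cytochrome complex, rose by 0.82, and CGL160, an ATP synthase assembly factor, differed by -0.45 and was not called on rescaled TPM.

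Lists of proteases, regulators and isoforms were more mixed. Of 10 repair genes 7 fell and 1 rose at 24 h (median -1.34). In that list PSB28 (-3.63) and TLP18.3 (-3.29) fell, FTSH8, a thylakoid protease subunit that degrades damaged photosystem II, rose by 1.12, and FTSH2 (-0.36) and the lumen protease DEG1 (0.04) were not called. Of 13 regulators 10 fell and 2 rose (median -1.98). TIC62, an anchor of the reductases (-4.84), and CURT1B, which bends grana margins (-3.65), fell, while PGRL1B rose by 1.21, the kinase STN7 rose by 0.31 and PGR5 (-0.23) was not called. Of 11 other isoforms 8 fell and 1 rose (median -2.16). FDC1, a ferredoxin-like protein (-5.66), and PSBP2 (-3.22) fell, whereas FD3, the ferredoxin known from roots, rose by 0.72, and RFNR1 (-0.52) and ATPC2 (-0.44) were not called.

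**Figure D5:**
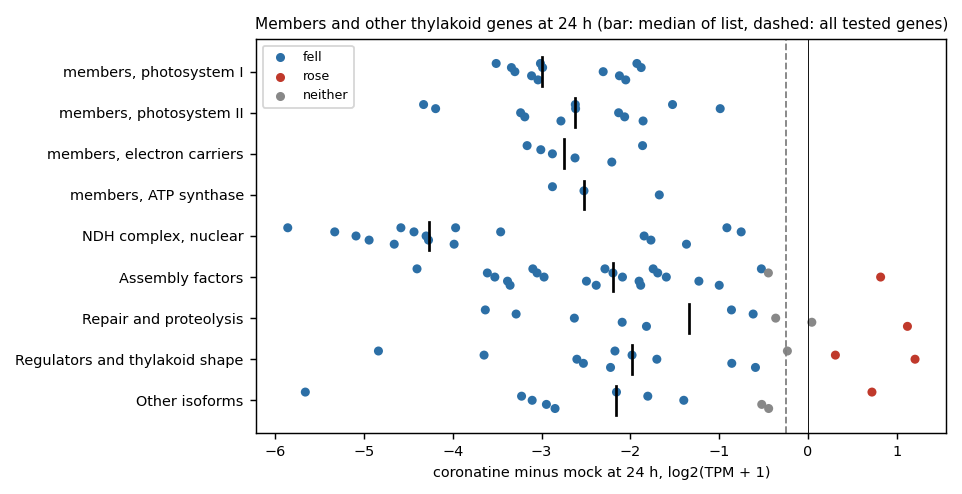
Coronatine minus mock difference at 24 h on the log2(TPM + 1) scale (x axis) for each gene (points) of the 4 role groups and of 5 further thylakoid lists, coloured by call, with bars at list medians and a dashed line at the median of all tested genes, -0.24. All points of the 4 role groups and of the NDH complex are called as fallen, and the other 4 lists hold genes that rose or were not called.

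Markers of leaf cell types moved as well. The summed TPM of the 3 mesophyll markers RBCS1A, CAB3 and RCA, all photosynthesis genes themselves, was 2117 to 3035 with coronatine and 34167 to 35667 in mock at 24 h, and 3 of 3 fell. The 4 epidermis markers fell as well, from 352 to 365 TPM in mock to 10.4 to 17.0 TPM. Of the 4 guard cell markers 2 rose (summed TPM 106 to 108 with coronatine, 38.9 to 41.3 in mock), and of the 4 xylem markers 3 rose (19.9 to 21.0 against 8.94 to 12.1 TPM), with VND7 below 1 TPM in every library. The 4 phloem markers summed to 242 to 257 TPM with coronatine and 259 to 271 TPM in mock, and 1 rose. The 2 myrosin cell markers summed to 6514 to 7195 TPM and 6543 to 7091 TPM, and 1 rose. The 2 trichome markers summed to 2.82 to 4.30 TPM and 5.91 to 8.67 TPM, and 1 fell. The 4 root and 5 flower markers each stayed below 1 TPM in every library. The part of these shifts in the fall of the members was not tested.

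Libraries of a group differed in a way that the members shared. At 24 h the coronatine replicate 3 was the lowest of its group in 33 of 33 members, and replicate 2 the highest in 31. At 12 h the coronatine replicate 2 was the lowest in 33 of 33, and among mock leaves at 3 h replicate 1 was the lowest in 30. Leaving out any library of these groups left 33 members fallen at 24 h and 23 to 24 at 12 h.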

How the data were processed

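The authors deposited gene-level TPM for 27655 genes in 30 libraries, matched to samples by the labels' descriptions. Per the submitters' processing notes, RSEM 1.3.3, DESeq2 and the build TAIR10 were used, with no role stated. The aligner, annotation release and strand setting are not given in the sources used here. The authors' 5 deposited comparison tables hold, per the file headers, a base mean (a normalized signal), a log2 fold change with error, a test statistic (a score) and both raw and adjusted p-values. These gave an alternative and the TAIR10 coordinates.

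The 19005 genes (68.7%) that reached 1 TPM in 3 or more libraries were tested as log2(TPM + 1), which understates changes of low genes. A mean per group over 30 libraries was fitted (limma 3.58.1, R 4.3.3, mean-variance trend) with Benjamini-Hochberg adjustment over all tested genes within each comparison, two-sided at 0.05. TMM factors (trims of 30% and 5%) ranged from 0.730 to 1.33. Only genes called alike on both scalings count as risen or fallen. Permutation tests used Python 3.11.15. The limma procedure was tested on simulated data in which a small part of the genes changed in a single group. The simulated libraries were not brought to a fixed total, so that test did not cover a shift of most genes. Promoter windows came from the RefSeq genome TAIR10.1, whose protein table was not used here.

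The members, lists and call rule were chosen with earlier results of these data known. Values in every sample are given for the called members with the largest difference each way in each role group, for pairs whose share differed most, and for PSBS, chosen after seeing it. Summed TPM is given without the permutation test first planned for it, because the members were chosen with results known. Replicates with the same number in the sample titles did not deviate together. Their correlations ran from -0.254 to 0.122, and 3 of 15 matched best their own number. The labels' descriptions number coronatine and mock libraries apart, so title numbers cannot show or exclude a pairing of samples. Alternatives were other pseudocounts and filters, quantile normalization, each scaling alone, no trend, fewer samples per fit, leaving out 210 organelle loci, a replicate block, each library left out and the authors' tables.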

Additional observations from a re-analysis of the deposited data

Results flagged for a closer look

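The coronatine difference of the members changed between times in the direct test of that change, which is what brought these results forward. From 1 h to 3 h it moved upwards in 1 of 33 members, PETE1, by 0.34 on the log2 scale, a smaller share than among all tested genes (background 11.2%). From 3 h to 12 h it moved downwards in 27 members (background 30.6%), furthest in PSBO2, by -2.05. From 12 h to 24 h it moved downwards in 32 members (background 15.1%), furthest in PSAE1, by -2.19. PSAE1 had stood above mock at 3 h and 12 h on TPM as deposited. Its call as risen was lost at 3 h without the mock replicate 1 (limma adjusted p 0.0704), and at 12 h the direction turned under quantile normalization (-0.072). No cause of these changes was tested.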

How the results depend on the processing

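TPM keeps no depth, so these limits concern scaling and 3 libraries per group. Pseudocounts of 0.1 and 5, either filter, no trend, only the compared groups and removal of plastid and mitochondrial loci each changed no call. In each, 132 of 132 member calls at 1 h to 24 h stood as reported. The replicate block changed none of them either, although its numbers cannot show whether samples were paired. The falls at 24 h held under every alternative run. Results up to 12 h depended on scaling. At 12 h 32 members were called lower on TPM alone, beside 11700 of the 19005 tested genes. On both scalings 23 members were called lower, beside 7869 tested genes. The cause of this dependence was not tested.

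Quantile normalization gave 9 members fallen at 1 h, 28 fallen and 1 risen at 3 h (PETE1 was not called), 0 risen at 12 h (PSAE1 at -0.072), 22 moving downwards and 0 upwards from 1 h to 3 h, 1 moving upwards from 12 h to 24 h, 8 risen and 2 fallen in mock leaves at 3 h and 7 risen at 12 h. The shares of all tested genes were not computed under quantile normalization. TPM as deposited alone gave 4 fallen at 1 h, 24 fallen at 3 h, 13 moving downwards from 1 h to 3 h, 1 moving upwards from 12 h to 24 h and 3 risen in mock leaves at 12 h. Over all 19005 tested genes these counts were 7919, 12843, 8679, 8774 and 9619. Rescaled TPM alone gave 3 risen at 1 h, 16 at 3 h and 3 at 12 h, and 6 moving upwards from 1 h to 3 h. Over all 19005 tested genes these counts were 3231, 6726, 8290 and 5005. The authors' deposited table gave 4 higher at 1 h, 16 at 3 h and 2 at 12 h, beside 3109, 6453 and 8114 of 21768 loci with values. It gave 0 members lower at 3 h and 26 at 12 h, beside 7029 and 8353 of these loci. PSAK, PSBR and FNR2, not called here at 12 h, were among those 26.

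Of the members with a negative difference at 3 h, 14 were called higher on rescaled TPM and in the authors' deposited table, with log2 differences on rescaled TPM and then in that table of 0.22 and 0.20 for PSAE2, 0.42 and 0.40 for PSAH1, 0.39 and 0.37 for PSAL, 0.20 and 0.18 for PSBO1, 0.34 and 0.32 for PSBO2, 0.40 and 0.37 for PSBR, 0.45 and 0.42 for PSBS, 0.31 and 0.29 for PSBY, 0.41 and 0.38 for PSBTN, 0.26 and 0.24 for PETC, 0.24 and 0.21 for FNR1, 0.45 and 0.42 for FNR2, 0.34 and 0.31 for ATPD, and 0.39 and 0.37 for ATPG. At 12 h the same held for PSBW (0.29 and 0.25) and, on rescaled TPM, for PSAE2 (0.22). Summed TPM on the rescaled values gave log2 ratios at 1, 3, 12 and 24 h of 0.10, 0.24, -0.39 and -2.11 for all members, 0.073, 0.23, -0.17 and -2.30 for photosystem I, 0.14, 0.24, -0.42 and -1.91 for photosystem II, 0.037, 0.26, -0.86 and -2.40 for the carriers and 0.037, 0.25, -0.72 and -1.97 for the ATP synthase.

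With each library left out in turn, 1 to 2 members rose at 3 h, where PSAE1 was lost without the mock replicate 1, and 4 to 7 fell in mock leaves at 3 h, with 4 without the mock replicate 1 at 0 h or at 3 h. The 7 pair shares kept their direction, with p of at most 0.0038.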
